A study of Mus musculus with 16 samples.

Results

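The cortex of Dp16 mice was compared with that of wild-type mice, with no amyloid transgene in either group. Dp16 mice carry a duplication of the distal part of mouse chromosome 16 and are used to model trisomy 21, since most of the duplicated genes have their human counterparts on chromosome 21. The comparison used 8 of the 16 libraries of the study, 4 labelled Dp16 and 4 labelled wild-type C57BL/6J, chosen by their genotype labels. All 8 samples were brain cortex taken at 9 months of age, with 2 females and 2 males per group. The other 8 libraries came from mice of the same age that carry the 5xFAD transgenes, which are driven by the Thy1 promoter, without (4) or with (4) the duplication. They entered the fits to estimate the spread between libraries and served for 1 contrast. The labels describe neither the strain background of the Dp16 mice nor litters, so the p-values measure the spread between these samples, which may be technical in part.

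A duplicated segment gives each of its genes 3 copies in place of 2, and a gene whose RNA follows its copy number is expected at 1.5-fold, or 0.58 on the log2 scale. The segment holds genes with known roles in the brain. They include App, the source of the amyloid β peptide, Dyrk1a, a protein kinase that adds phosphate to tau and to transcription factors, Rcan1, an inhibitor of the phosphatase calcineurin, and Sod1, which removes superoxide. It also holds 4 receptor chains through which cells sense interferons and interleukin 10, and Olig1 and Olig2, transcription factors of the oligodendrocyte lineage. Genes outside the segment are not part of the duplication, and copy number was not measured here.

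Library totals in the 8 libraries ran from 16874481 to 22288411 counts, and 17555 genes passed a filter on low counts. Levels are in CPM (counts scaled to a common library size), with the SD over the 4 libraries of a group. Log2 fold changes are Dp16 minus wild-type and carry their standard error. Xist and Ddx3y matched the sex label in 16 of 16 libraries. Cortical neuron genes were abundant: Camk2a, a kinase of excitatory neurons, stood at 2134 ± 1134 CPM in wild-type and 1753 ± 586 CPM in Dp16, and Thy1 at 810.5 ± 62.8 CPM in wild-type and 888 ± 119.7 CPM in Dp16. The libraries differed in how a gene's level depended on its length. The slope of log2 CPM on log2 gene length, relative to all libraries, was 0.28, 0.0018, -0.44 and 0.16 in wild-type replicates 1 to 4 and 0.14, -0.017, -0.17 and -0.18 in the Dp16 replicates. Wild-type replicate 3 lay farthest from the others, and many values below are given with and without it. Tissue was bulk, so fewer cells of a type and less RNA per cell cannot be told apart.

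The duplicated segment was higher in all 4 Dp16 libraries than in any wild-type library. Its genes summed to 6393.9, 6563.5, 7719.9 and 6476.1 CPM in wild-type replicates 1 to 4. In the Dp16 replicates they summed to 9549.8, 9761.2, 9959.4 and 10026 CPM. The groups did not overlap, and wild-type replicate 3 was the highest of its group. These sums are scaled levels and not shares of a library's own counts. Wild-type replicate 3 had the lowest normalisation factor (0.858), which raises every CPM of that library. The segment's limits were set at the genes Lipi and Zbtb21 (chromosome 16, 75540514 to 97962622 on GRCm38, 22.4 Mb). Of its 384 annotated genes 109 passed the low-count filter, 92 of them protein-coding. Among the 275 that did not, 194 had no count in the 8 libraries, Lipi included, and the other 81 summed to 346 counts in wild-type and 543 in Dp16.

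Of these 109 genes, 98 were above the wild-type mean on the log2 scale and 11 below. The median log2 fold change was 0.55 (interquartile range 0.36 to 0.66), a 1.46-fold difference, against -0.03 (-0.18 to 0.09) for the 17446 genes elsewhere, of which 42.6% lay above 0. Chromosome 16 on the proximal side, with the 2 genes beyond the distal end, gave -0.03 too, over 426 tested genes. Segment genes with more reads scattered less: the 37 whose mean log2 CPM reached 5 were all above 0, with a median of 0.56 (0.51 to 0.62). The 45 between 1 and 5 had a median of 0.49, and the 27 below 1 scattered more widely, from 0.03 to 1.15 between quartiles. Along the segment, in 4 bins of 27 or 28 genes from the proximal end, medians were 0.49, 0.54, 0.56 and 0.53. The 17 tested genes that do not code for protein had a median of 0.60, and 5 of them lay below 0.

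**Figure D1:**
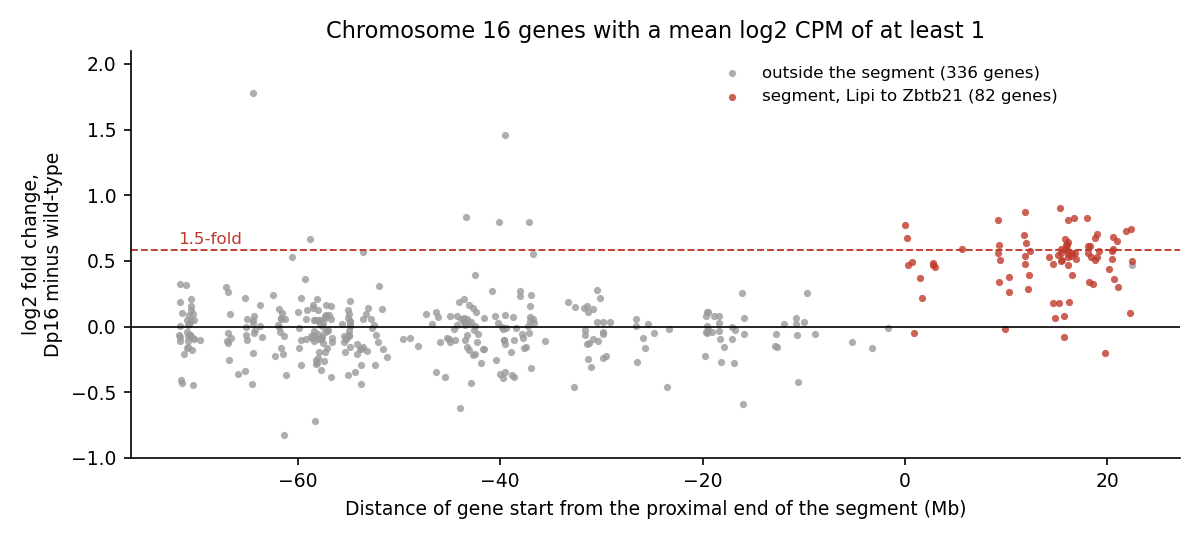
Log2 fold change of Dp16 against wild-type (vertical axis) for each chromosome 16 gene whose mean log2 CPM reached 1, plotted by distance in Mb from the proximal end of the segment; the dashed line marks 1.5-fold. The 82 segment genes (red) gather around the line with a median of 0.53, and the 336 genes outside (grey) gather around 0, apart from a few such as Gm23935 (1.78 ± 0.69).

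Each Dp16 library showed the shift on its own. Against the wild-type mean, the median log2 ratio over the 109 genes was 0.44, 0.54, 0.53 and 0.54 in Dp16 replicates 1 to 4, and -0.04, -0.02, 0.17 and -0.03 in the wild-type replicates. Replicate 1 was the lowest of the Dp16 libraries and wild-type replicate 3 the highest of the controls. Between 93 and 97 of the 109 genes were above the wild-type mean in each Dp16 library.

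**Figure D2:**
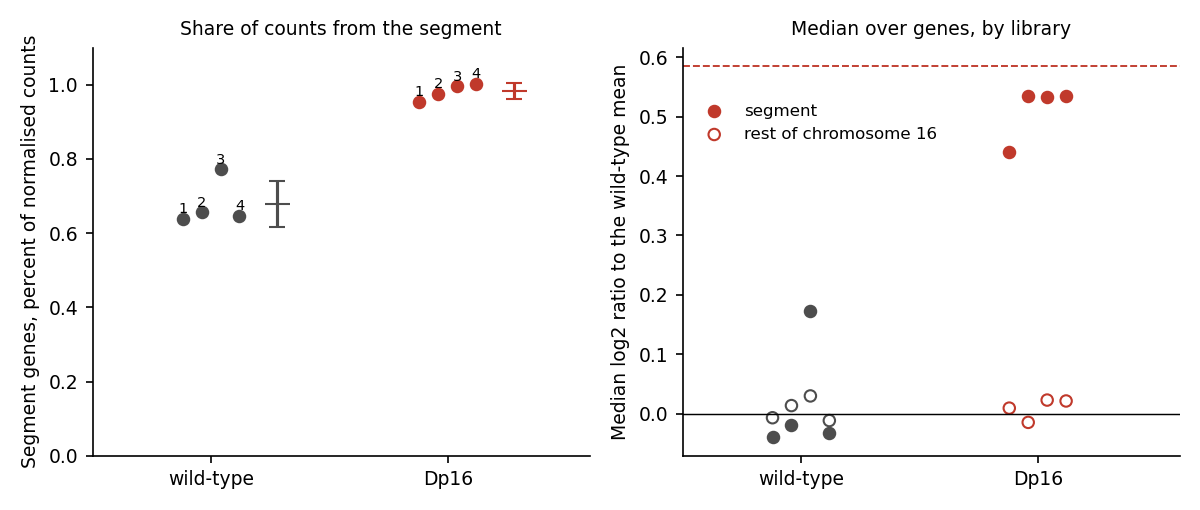
Left, the segment's summed CPM in each library, as a percent of the common library size and not of the library's own counts. Libraries are numbered by replicate, the dash is the mean and the bar the SD. Values were 0.955% to 1.00% in Dp16 and 0.639% to 0.772% in wild-type, with no overlap. Right, each library's median log2 ratio to the wild-type mean (replicates 1 to 4 from left), filled for segment genes and open for the rest of chromosome 16, which stays near 0; the dashed line marks 1.5-fold.

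Gene by gene, the outcome depended on how the length dependence was handled. In edgeR's quasi-likelihood test with Benjamini-Hochberg adjustment over the 17555 genes, 1 gene was called at an adjusted p under 0.05, 0.0057% of those tested, and it lay outside the segment. None of the 109 segment genes was called, although 42 had an unadjusted p under 0.05 (background 2.2%, or 386 genes) and 26 had no overlap between the groups, all 26 higher in Dp16. Over all tested genes 1.56% had groups that did not overlap, 0.98% with Dp16 higher and 0.575% with Dp16 lower. DESeq2 called 13 segment genes of 17 in all (0.0968% of genes), and limma-trend on log2 RPKM called 0 segment genes. Voom with sample weights gave wild-type replicate 3 a weight of 0.0852. It called 4491 of the 17555 genes, 55 of them in the segment. With the length slope as a covariate in edgeR, 36 of the 109 segment genes were called, all higher, out of 44 genes in all (0.251% of those tested, and 0.239% for the 42 higher genes).

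The covariate left the segment's median nearly where it was, at 0.57 (0.45 to 0.68), and without wild-type replicate 3 the median was 0.60, or 0.55 with the covariate. The covariate lowered the common coefficient of variation between replicates from 0.292 to 0.161. The 36 genes called with it had log2 fold changes of 0.45 to 0.85 there and were abundant, with a median wild-type level of 55.2 CPM against 3.92 CPM for the segment genes not called. Without wild-type replicate 3, the fit with the covariate called 14 genes (0.0783% of 17890 tested), 13 of them in the segment, and the 13 were among the 36. These were App, Vps26c, Brwd1, Rcan1, Gart, Tmem50b, Ifnar1, Wrb, Cct8, Nrip1, Ltn1, Jam2 and Pcp4. DESeq2 and the fit with the covariate shared 11 segment genes. Below, "adjusted p" refers to edgeR's quasi-likelihood test, and "with the slope covariate" to the same test with that term. Likewise "called" refers to these fits of all 16 libraries unless another tool is named.

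At the proximal end the values stepped up between Robo2 and Rbm11, and at the distal end too few genes were tested to see a step. On the proximal side, the last tested genes outside were Robo1 and Robo2, axon guidance receptors, at -0.16 ± 0.21 and -0.01 ± 0.20, and the non-coding Gm49678, under 1 CPM in both groups, at 1.08 ± 0.77. The first tested genes inside were Rbm11, an RNA-binding splicing factor (chr16:75592844-75602829), at 0.77 ± 0.30, Hspa13, a relative of the HSP70 chaperones, at 0.68 ± 0.28 (1.06 without wild-type replicate 3), and Samsn1, an adaptor protein, at 0.47 ± 0.36 (0.71 without it). On the distal side the last genes inside were Prdm15 (0.11 ± 0.20), C2cd2 (0.74 ± 0.27) and Zbtb21, a zinc finger transcriptional regulator (0.50 ± 0.17). Zbtb21 read 20.2, 19.5, 11.3 and 16.4 CPM in wild-type replicates 1 to 4 and 24.3, 24.2, 23.6 and 23.5 CPM in the Dp16 replicates, which did not overlap. The coordinates of C2cd2 and Zbtb21 overlap, and since no source used here says whether the counting used strand, their values may share reads. Only 2 tested genes lay beyond, B230307C23Rik (0.47 ± 0.44) and A630089N07Rik (0.65 ± 0.46), and both standard errors were too large to place them at 0 or at 1.5-fold.

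Each segment gene was also tested against 1.5-fold in place of no change. None of the 109 differed after adjustment in edgeR's quasi-likelihood test, which was the only tool run for it, and 6 had an unadjusted p under 0.05 (28 without wild-type replicate 3). Ripk4 and Gm5678, a predicted gene, both under 2 CPM, lay above 1.5-fold, and Olig2, Map3k7cl, Hunk and Prdm15 lay below it. Among the 109 genes, the 95% interval of the log2 fold change held 1.5-fold in 102 and no change in 67. It held 1.5-fold and not no change in 40, both in 62, and no change but not 1.5-fold in 5. A difference smaller than these intervals was not detectable with 4 libraries a group.

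The 4 cytokine receptor chains of the segment were all higher in each Dp16 library than in any wild-type library. Values here and below are in the order of replicates 1 to 4. Ifnar1, a chain of the type I interferon receptor (chr16:91485238-91507441), read 32.1, 32.5, 22.7 and 38.9 CPM in wild-type and 53.6, 45.6, 44.8 and 49.9 CPM in Dp16. The lowest Dp16 library exceeded the highest wild-type library, and the log2 fold change was 0.62 ± 0.14 (adjusted p = 0.797, and 0.000265 with the slope covariate). Ifnar2, its partner chain, read 14.2, 12.6, 12.3 and 16.02 CPM in wild-type and 24.6, 21.2, 18.8 and 22.6 CPM in Dp16, a log2 difference of 0.66 ± 0.19. Ifngr2, a chain of the interferon γ receptor, read 49.1, 63.99, 61.7 and 46.2 CPM and 94.7, 99.4, 73.1 and 72.95 CPM, a log2 difference of 0.62 ± 0.16. Il10rb, shared by the receptors of interleukin 10 and interferon λ, read 9.99, 7.75, 8.33 and 9.82 CPM and 12.998, 14.9, 13.4 and 12.8 CPM, a log2 difference of 0.59 ± 0.15. In edgeR none of the 4 was called without the covariate and Ifnar1 alone with it, while DESeq2 called Ifnar1 and Il10rb. Voom called all 4, in a fit that called 4491 of 17555 genes and 55 of the 109 segment genes. The median of the 4 was 0.62 against -0.03 for all tested genes.

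App and Bace2 represent the amyloid pathway in the segment. App (chr16:84949685-85173766) read 1670.2, 1346, 729 and 1516 CPM in wild-type and 2386, 2106, 1529 and 1446 CPM in Dp16. The groups overlapped: wild-type replicate 1 was above Dp16 replicates 3 and 4, wild-type replicate 4 was above Dp16 replicate 4, and wild-type replicate 3 was the lowest of all. The means were 1316 ± 413 CPM in wild-type and 1867 ± 454 CPM in Dp16 (1.42-fold), a log2 fold change of 0.51 ± 0.24 (adjusted p = 0.9999). With the slope covariate it was 0.64 ± 0.09 (adjusted p = 0.000761). Without wild-type replicate 3 it was 0.30, or 0.64 with the covariate as well, and with voom's sample weights it was 0.14. Length-scaled levels were 160.1 RPKM in wild-type and 229 RPKM in Dp16. Bace2, a protease related to the β-secretase, was far lower, at 0.495 RPKM in wild-type and 0.836 RPKM in Dp16, and had a log2 difference of 0.73 ± 0.33 without a call in either edgeR fit.

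Among kinases and signalling genes, all 10 tested had a log2 fold change above 0 (median 0.53), and 4 were called with the slope covariate. Over all 109 segment genes 98 lay above 0 and 36 were called with it, and the counts of each segment list are read beside these. Dyrk1a (chr16:94570010-94695517) read 86.8, 75.8, 60.1 and 76.3 CPM in wild-type and 115, 109, 101 and 108 CPM in Dp16. The groups did not overlap, and Dp16 replicate 3 was the lowest Dp16 library. Its log2 fold change was 0.53 ± 0.13 (adjusted p = 0.800, and 0.00107 with the slope covariate). Rcan1, the calcineurin inhibitor (chr16:92391953-92470867), read 65.2, 70.9, 52.8 and 64.2 CPM and 107, 93.3, 88.2 and 85.7 CPM, with no overlap and a log2 difference of 0.56 ± 0.14 (0.000392 with the slope covariate). Vps26c, a subunit of an endosomal recycling complex, had a log2 difference of 0.70 ± 0.21 and was called with the covariate (adjusted p = 0.000265). Tiam1, an activator of the small GTPase Rac1, was called with it too, although Dp16 replicate 1 stood apart: the gene read 57.6, 40.8, 17.99 and 48.1 CPM in wild-type and 78.4, 52.4, 54.7 and 52.4 CPM in Dp16. Tiam1's log2 fold change was 0.53 ± 0.27, and 0.29 without wild-type replicate 3. Itsn1, a scaffold of endocytosis, was not called and its direction depended on single libraries: 0.19 ± 0.32, but -0.12 without Dp16 replicate 1 and -0.07 without wild-type replicate 3. Ripk4, a kinase best known from skin, had 28 counts in all wild-type libraries and 137 in Dp16, and Cryzl1, named for its likeness to a quinone reductase, had a log2 difference of 0.53 ± 0.38, or 1.20 without wild-type replicate 3.

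**Figure D3:**
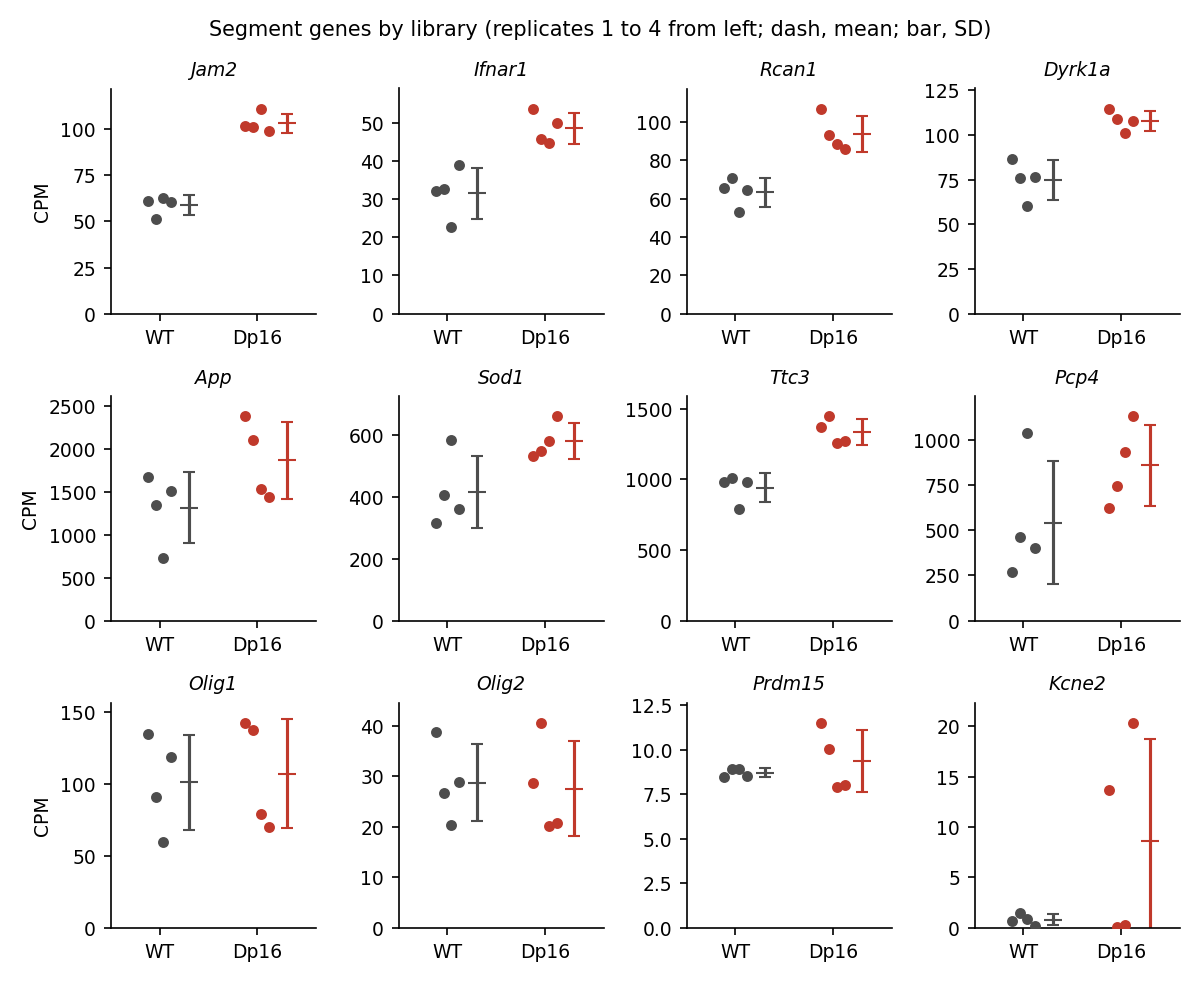
CPM of segment genes by library (replicates 1 to 4 from left; dash, mean; bar, SD; each vertical axis starts at 0, where the bar of Kcne2 is cut). Jam2, Ifnar1, Rcan1, Dyrk1a and Ttc3 separate the groups fully, App overlaps between the groups, Olig1 and Olig2 lie at like levels in both groups, and Kcne2 is high in Dp16 replicates 1 and 4 alone.

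Segment genes on the list of synapse, channel and adhesion genes lay above 0 but overlapped between the groups. All 9 tested members, Kcne2 and Clic6 (described below) among them, lay above 0 (median 0.58). With the slope covariate 2 were called, and none had groups that did not overlap. Pcp4, a small regulator of calmodulin, read 266, 464, 1038 and 401 CPM in wild-type and 623, 742, 935 and 1132 CPM in Dp16. Wild-type replicate 3 lay within the Dp16 range, and the log2 fold change was 0.65 ± 0.35 (adjusted p = 0.000821 with the slope covariate), or 1.29 without wild-type replicate 3. Synj1, a lipid phosphatase that uncoats synaptic vesicles, was called too: 192 ± 72.3 CPM in wild-type and 270.1 ± 69.8 CPM in Dp16, 0.50 ± 0.28 (adjusted p = 0.00157 with the slope covariate), or 0.25 without wild-type replicate 3. Ncam2, a neural adhesion molecule, had a log2 difference of 0.59 ± 0.23, and Grik1, a kainate receptor subunit, of 0.58 ± 0.28, neither called. These were 0.38 and 0.32 without wild-type replicate 3. Dscam, a neural adhesion molecule encoded by a very long gene, had a log2 difference of 0.30 ± 0.33, of 0.03 without wild-type replicate 3, and of -0.12 with voom's sample weights. The list's median was 0.35 without wild-type replicate 3, or 0.59 with the slope covariate as well.

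The list of junction, adhesion and matrix genes held the segment gene with the smallest p. Jam2, a junctional adhesion molecule of vessel walls and glia (chr16:84774123-84825928), read 61.2, 51.2, 62.9 and 60.5 CPM in wild-type and 102, 101, 111 and 98.9 CPM in Dp16. The lowest Dp16 library lay well above the highest wild-type library. Its log2 fold change was 0.81 ± 0.13, or 1.75-fold (adjusted p = 0.158, and 0.000235 with the slope covariate). Across the list 6 of 7 tested genes lay above 0, with a median of 0.47, and Jam2 alone was called with the slope covariate. Eva1c, a receptor of low abundance, read 2.70, 0.982, 2.84 and 3.38 CPM and 4.99, 5.01, 4.52 and 3.87 CPM (0.90 ± 0.34), and Cxadr, an adhesion protein that viruses use as a receptor, had a log2 difference of 0.47 ± 0.19. Adamts1, a matrix protease, had a log2 difference of 0.27 ± 0.45, and of -0.11 without wild-type replicate 3.

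Of the 20 chromatin and transcription genes tested, 18 lay above 0 (median 0.48) and 8 were called with the slope covariate. Brwd1, a bromodomain protein, read 64.8, 63.1, 78.04 and 66.7 CPM in wild-type and 92.95, 94.2, 104 and 97.8 CPM in Dp16. The groups did not overlap, and the log2 fold change was 0.51 ± 0.12 (adjusted p = 0.00389 with the slope covariate). Son, an RNA splicing cofactor, was also separated, at 196, 168, 122 and 172 CPM and 236, 254, 204 and 218 CPM, but less widely (0.47 ± 0.15). Hmgn1, which binds nucleosomes, had a log2 difference of 0.59 ± 0.24 (0.89 without wild-type replicate 3) with overlapping groups and was called with the covariate. Morc3, an ATPase of nuclear bodies, had a log2 difference of 0.61 ± 0.15 and had no overlap. Setd4, a lysine methyltransferase, had a log2 difference of 0.82 ± 0.29 from a low level of 3.97 CPM and was not called in edgeR or DESeq2. It was called in voom, which called 55 of the 109 segment genes and 4491 of 17555 genes in all.

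All 10 tested protein quality control genes lay above 0 (median 0.61), and 8 were called with the slope covariate, against 98 and 36 of all 109 segment genes. Ttc3, a ubiquitin ligase, read 985, 1010.1, 790.3 and 983 CPM in wild-type and 1373, 1449.9, 1259 and 1269 CPM in Dp16. The groups did not overlap, and wild-type replicate 3 lay below the other controls. The log2 fold change was 0.51 ± 0.13 (adjusted p = 0.00169 with the slope covariate). Cct8, a subunit of the chaperonin that folds actin and tubulin, read 180.4, 204, 261 and 189 CPM and 276, 318, 344 and 361 CPM, with no overlap (0.64 ± 0.16). Ltn1, the ligase that tags chains on stalled ribosomes, had a log2 difference of 0.54 ± 0.13, Dnajc28 of 0.81 ± 0.15, and Wrb, part of the receptor that inserts tail-anchored proteins into the endoplasmic reticulum, of 0.68 ± 0.21. Wrb was the 1 segment gene called when wild-type replicate 3 was left out of the fit with no slope covariate, at 0.99.

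In the list of mitochondria and metabolism, all 15 tested genes lay above 0 (median 0.56) and 8 were called with the slope covariate. Sod1 (chr16:90220754-90226329) read 316, 404, 582 and 361 CPM in wild-type and 531, 546, 581 and 661 CPM in Dp16. Wild-type replicate 3 was as high as the Dp16 libraries and the other controls were lower, and the log2 fold change was 0.48 ± 0.19 (adjusted p = 0.00302 with the slope covariate), or 0.72 without wild-type replicate 3. Atp5o and Atp5j, subunits of the mitochondrial ATP synthase, overlapped in the same way and had a log2 difference of 0.54 ± 0.37 and 0.62 ± 0.31. Cbr1, a carbonyl reductase, had a log2 difference of 0.56 ± 0.37. Leaving out wild-type replicate 3 put Atp5o at 1.21, Atp5j at 1.12 and Cbr1 at 1.20. The list's median was 1.07 without wild-type replicate 3, or 0.59 with the slope covariate as well. Gart, an enzyme of purine synthesis, was separated in every library, at 32.3, 39.5, 46.9 and 37.6 CPM and 57.3, 56.7, 58.5 and 58.6 CPM (0.56 ± 0.13; adjusted p = 0.00137 with the slope covariate), and so was the membrane protein Tmem50b (0.58 ± 0.13).

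**Figure D4:**
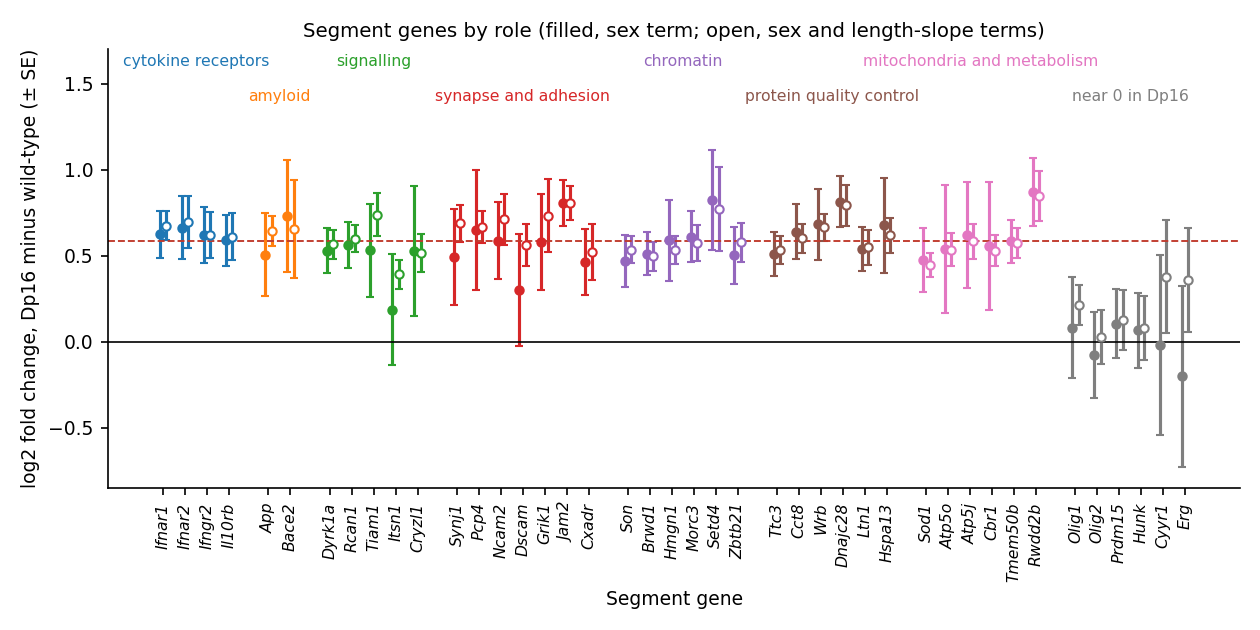
Log2 fold change (± SE) of segment genes by role, without (filled) and with (open) the length slope as a covariate; the dashed line marks 1.5-fold and the solid line no change. Standard errors shrink with the covariate for genes such as App (0.24 to 0.09), and the group at the right, from Olig1 to Erg, lies near 0 without it.

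Some segment genes with ample reads had estimates near the wild-type level. Olig1 read 135, 90.5, 59.8 and 118 CPM in wild-type and 142, 138, 78.8 and 69.8 CPM in Dp16, and Olig2, its neighbour, 38.8, 26.8, 20.5 and 28.99 CPM and 28.7, 40.6, 20.2 and 20.9 CPM. The groups overlapped for both, and the log2 fold changes were 0.08 ± 0.29 and -0.08 ± 0.25. They were -0.14 and -0.27 without wild-type replicate 3, and 0.21 and 0.03 with the slope covariate. Oligodendrocyte and myelin genes, beside which these are read, had 0 of 18 above 0, with a median of -0.28 (-0.15 without wild-type replicate 3). Their summed level was 8529 to 10965 CPM in wild-type and 6458 to 9375 CPM in Dp16. At an unadjusted p under 0.05, 2 of the 18 were lower (2.2% of all tested genes in either direction). Whether the number or RNA content of oligodendrocytes had a part in the values of Olig1 and Olig2 was not tested. In mice with the 5xFAD transgenes the Dp16 difference of Olig1 was 0.07 ± 0.29 and that of Olig2 -0.08 ± 0.25.

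Hunk, a kinase, had a log2 difference of 0.07 ± 0.22 at 13.3 CPM, and of -0.10 ± 0.22 in the 5xFAD background. Prdm15, a zinc finger regulator at the distal end, had a log2 difference of 0.11 ± 0.20 here but of 0.58 ± 0.20 in the 5xFAD background. Erg, a transcription factor of endothelium, had a log2 difference of -0.20 ± 0.53, and Cyyr1, a small membrane protein, of -0.02 ± 0.52. Both were under 4 CPM with standard errors over 0.5, and the endothelium and pericyte list beside them had 1 of 14 genes above 0 (median -0.35, -0.23 with the slope covariate and -0.56 without wild-type replicate 3). The direction of both genes turned with the covariate, to 0.36 for Erg and 0.38 for Cyyr1, and without wild-type replicate 3 they were at -0.57 and -0.36. Summed, that list ran from 373 to 639 CPM in wild-type and from 376 to 476 CPM in Dp16. The part of vessel content in these values was not tested.

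Kcne2 and Clic6 are segment genes that choroid plexus epithelium expresses, and their values are given beside Ttr. Kcne2, a potassium channel subunit, read 0.705, 1.5, 0.845 and 0.141 CPM in wild-type and 13.7, 0.0964, 0.248 and 20.3 CPM in Dp16. It was high in Dp16 replicates 1 and 4 alone, the libraries in which Ttr, the thyroid hormone carrier made by that epithelium, stood at 968 and 1251 CPM against 9.35 and 5.21 CPM in Dp16 replicates 2 and 3. In wild-type replicates 1 to 4 Ttr stood at 302, 231, 51.2 and 9.59 CPM. Clic6, a chloride channel family member, read 6.11, 4.13, 3.08 and 2.02 CPM and 8.36, 4.87, 0.943 and 7.43 CPM. Log2 fold changes were 2.71 ± 2.01 and 0.51 ± 0.87. The choroid plexus and ependyma list, to which Clic6 belongs, had 13 of 13 genes above 0 (median 0.72), none called, and summed to 29.6 to 345 CPM in wild-type and 41.8 to 1323 CPM in Dp16. Its part in the values of Kcne2 and Clic6 was not tested.

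Outside the segment 1 gene was called. It was a, the nonagouti gene, which encodes agouti signalling protein, a regulator of coat pigment (chr2:154791402-155051012). Its reads numbered 0, 0, 0 and 2 in wild-type replicates 1 to 4 and 255 in all in Dp16, or 0, 0, 0 and 0.0940 CPM and 3.37, 2.36, 3.03 and 3.10 CPM. The gene was all but silent in each wild-type library and counted in each Dp16 library. The ratio of normalised rates was 112 (95% exact interval 30.8 to 934, which covers counting error only), and the fitted log2 fold change, which depends on a prior count, was 6.55 ± 0.62 (adjusted p = 0.00265). In the groups with 5xFAD the same split appeared, with 0 counts in 4 libraries without the duplication and 45 to 83 counts in each of the 4 libraries with it. The adjusted p was 0.0873 with the replicate number as a block and 0.136 in a fit of only the 8 libraries, against 7.41e-05 with the slope covariate and 2.72e-07 in DESeq2. Tyr, the pigment cell enzyme, had 7 and 22 counts in wild-type and Dp16, and Krt14, a keratin of skin and hair follicles, 9 and 3. None of the 34 tested genes within 1 Mb of a had an unadjusted p under 0.05, and their median was -0.04. The origin of the reads of a was not tested.

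With the slope covariate 8 genes outside the segment were called, 6 higher and 2 lower. Without wild-type replicate 3, a alone of them was called in that fit. That fit has 1 library fewer, and its log2 fold changes were -0.91 for Cbs, 1.03 for Cort, -0.56 for Anln and 1.37 for Selenov. Selenov, a selenoprotein, read 1.18, 1.55, 1.63 and 1.08 CPM in wild-type and 3.28, 4.10, 7.49 and 6.97 CPM in Dp16. The groups did not overlap, and Dp16 replicates 3 and 4 were highest. Its log2 fold change was 2.02 ± 0.41 (adjusted p = 0.751; 0.00554 with the slope covariate, 0.56 with it and without wild-type replicate 3, and 0.00221 in DESeq2). Cort, cortistatin, a neuropeptide of inhibitory neurons, read 5.94, 10.1, 14.6 and 10.4 CPM and 17.99, 20.5, 15.4 and 20.9 CPM, with no overlap. Its log2 fold change was 0.86 ± 0.24 (adjusted p = 0.960, 0.0210 with the slope covariate, and 0.0915 with it and without wild-type replicate 3). The other higher genes were Slc5a5, the sodium iodide transporter (0.58 ± 0.20), Lgals3bp, an interferon-responsive secreted protein (0.64 ± 0.25), and Prelp, a matrix proteoglycan (0.41 ± 0.41; -0.088 without Dp16 replicate 1). Without wild-type replicate 3 and with no slope covariate, Lgals3bp was at 0.41 and Prelp at 0.11.

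Cbs and Anln were the lower genes. Cbs, cystathionine β-synthase, which converts homocysteine to cystathionine, has its human counterpart on chromosome 21 but lies on mouse chromosome 17, outside the duplication (chr17:31608894-31637238). It read 31.03, 23.9, 13.8 and 24.6 CPM in wild-type and 15.6, 12.4, 9.33 and 11.1 CPM in Dp16. Wild-type replicate 3, the lowest control, lay below Dp16 replicate 1, and the other 3 controls lay above every Dp16 library. Its log2 fold change was -0.94 ± 0.23, or 0.520-fold (adjusted p = 0.808; 0.00367 with the slope covariate, 0.0521 with it and without wild-type replicate 3, and 0.0628 in DESeq2), and -1.21 to -0.64 over the alternatives. Anln, an actin-binding protein of cell division and of myelin, read 67.5, 79.3, 129 and 77.3 CPM and 43.5, 62.7, 54.3 and 61.4 CPM, with no overlap. The log2 fold change of Anln was -0.66 ± 0.18 (adjusted p = 0.954; 0.00278 with the slope covariate, and 0.36 with it and without wild-type replicate 3).

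**Figure D5:**
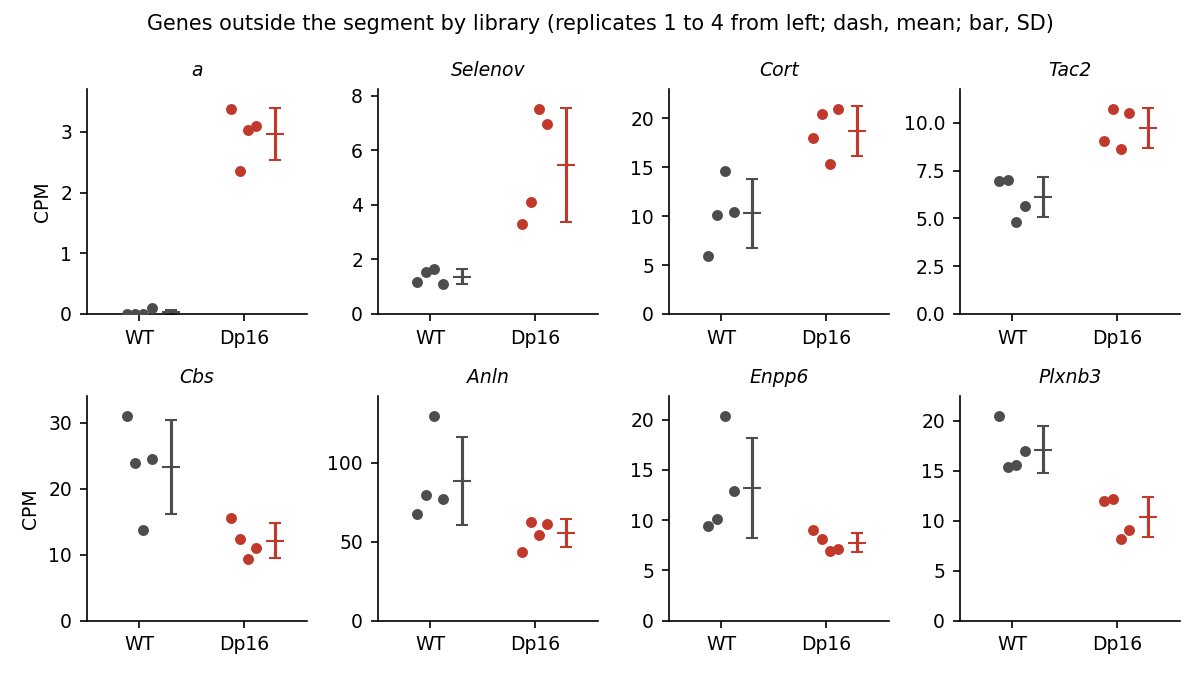
CPM by library of genes outside the segment (replicates 1 to 4 from left; dash, mean; bar, SD; each vertical axis starts at 0). The gene a is near 0 in wild-type and at 2.36 to 3.37 CPM in Dp16, and Cbs overlaps between the groups through wild-type replicate 3.

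Further protein-coding genes outside the segment had no overlap between the groups without being called. Higher in each Dp16 library were Tac2, the neurokinin B precursor of some inhibitory neurons (0.67 ± 0.20), Nrros, a microglial protein that helps to activate TGFβ (0.83 ± 0.23), and Scn7a, a sodium channel (0.83 ± 0.23). So were Slc25a34, a mitochondrial carrier (0.69 ± 0.19), Rab7b, a GTPase of endosomal transport (0.99 ± 0.27), and Fbxo16 (0.79 ± 0.22). Lower in each were Prrx1, a homeobox factor (-0.75 ± 0.19), Mlxipl, a glucose-responsive factor (-0.87 ± 0.23), Mto1, a modifier of mitochondrial transfer RNA (-0.55 ± 0.15), and Idua, a lysosomal enzyme (-0.67 ± 0.19). Enpp6, a marker of newly formed oligodendrocytes (-0.76 ± 0.23, or -0.46 without wild-type replicate 3), Plxnb3, a plexin of oligodendrocytes (-0.71 ± 0.22), and Fgf10, a growth factor (-0.85 ± 0.26), were lower as well. Adjusted p was between 0.751 and 0.9999 for the 16 genes of this kind selected by size of p, Selenov, Cort and Anln among them. Genes outside the segment with separate groups numbered 146 higher and 101 lower of 17446.

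Pathways downstream of segment genes showed no call apart from those above. Of 32 interferon-stimulated genes 26 lay above 0 (median 0.20, 0.26 with the slope covariate, and 0.08 to 0.38 over the alternatives). Single genes of the list ran from -4.18 to 1.36. At an unadjusted p under 0.05, 2 of the 32 were higher and 1 lower (2.2% of all tested genes in either direction). Lgals3bp was called with the slope covariate alone. Mx1 and Mx2, interferon-induced genes inside the segment, had a log2 difference of 1.34 ± 0.54 and 0.86 from levels under 1 CPM. JAK-STAT genes had 5 of 18 above 0 (median -0.08, or 0.06 with the slope covariate) and calcineurin and NFAT genes 3 of 13 (-0.11, or -0.02 with it). Immediate early genes, the first genes switched on by neuronal activity, had 3 of 20 above 0 (-0.16, or -0.07 with the slope covariate). For antioxidant genes the count was 9 of 21 (-0.03, or 0.01 with the slope covariate), for folate, copper and zinc handling 9 of 14 (0.02), and for unfolded protein and heat shock genes 11 of 19 (0.01). Synaptic vesicle and postsynaptic genes had 8 of 25 above 0 (-0.10, or 0.01 with the slope covariate). The 12 genes encoded by mitochondrial DNA had 2 above 0 (-0.18). For nuclear genes of oxidative phosphorylation (8 of 24, median -0.03) and of the proteasome (14 of 18, median 0.04), the value moved with 1 library: without wild-type replicate 3 the medians were 0.49 and 0.55. Immediate early genes lay at -0.39 without it, JAK-STAT genes at -0.21, calcineurin and NFAT genes at -0.19, synaptic genes at -0.24, folate, copper and zinc genes at 0.16, and unfolded protein genes at 0.066.

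Cell type lists, read as counts above and below 0, held no gene called without the slope covariate. Homeostatic microglia had 0 of 12 genes above 0 (median -0.19) and plaque-associated microglia 7 of 16 (-0.10), with no gene at an unadjusted p under 0.05 in either. These medians were -0.31 and 0.13 without wild-type replicate 3, and -0.23 and -0.03 with the slope covariate. Astrocyte genes had 3 of 12 above 0 (-0.10, -0.20 without wild-type replicate 3 and -0.02 with the slope covariate). Reactive astrocyte genes had 12 of 15 above 0 (0.24, or 0.34 with the slope covariate). In the reactive list Aspg, an asparaginase, had a log2 difference of 0.83 and Gfap, the astrocyte filament, of 0.39 ± 0.24, the latter at 198, 197, 289.8 and 203 CPM in wild-type and 231, 227, 549 and 205 CPM in Dp16. Dp16 replicate 3 alone was high for Gfap. Oligodendrocyte precursor genes had 1 of 8 above 0 (-0.26, -0.46 without wild-type replicate 3 and -0.11 with the slope covariate). Myelin genes had medians of -0.23 with the slope covariate and -0.09 with it and without wild-type replicate 3. Mbp, the major myelin protein, stood at 4782 ± 287 CPM in wild-type and 3742 ± 964 CPM in Dp16 (-0.35 ± 0.18).

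Lists of neuronal genes lay on either side of 0. Excitatory cortical neuron genes had 2 of 17 above 0 (median -0.21, or -0.04 with the slope covariate) and inhibitory neuron genes 12 of 16 (0.11). Of these 16, 3 were higher at an unadjusted p under 0.05 and 4 were higher with no overlap. Over all tested genes, 2.2% had such a p in either direction and 0.98% were higher with no overlap. Genes of neighbouring regions had 1 of 10 above 0 for striatum (-0.18), 6 of 9 for hippocampus (0.15) and 0 of 8 for thalamus (-0.40, or 0.09 with the slope covariate and without wild-type replicate 3). Leptomeninges and fibroblast genes had 3 of 10 above 0 (-0.06, or 0.01 with the slope covariate) and blood genes 6 of 7 (0.16). Without wild-type replicate 3 the medians were -0.37 for excitatory neurons, 0.20 for inhibitory neurons, 0.03 for leptomeninges and 0.43 for blood. The part of tissue makeup in the values above was not tested.

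Genes whose human counterparts lie on chromosome 21 but that fall outside the duplicated segment of the mouse were a comparison group. Of 38 tested, 15 lay above 0 and 23 below, with a median of -0.02 (0.04 with the slope covariate and -0.14 without wild-type replicate 3). Cbs was the only one called, with the covariate, and Rsph1, a protein of cilia near Cbs, had no overlap (0.75 ± 0.29).

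The segment was also higher in mice with both genotypes than in 5xFAD mice, a pair of groups that shares no library with the one above. There the median over the 109 segment genes was 0.57 (0.38 to 0.74), with 97 above 0. For Ifnar1 the log2 fold change was 0.64 ± 0.14, for Dyrk1a 0.66 ± 0.13, for App 0.79 ± 0.24, for Sod1 0.51 ± 0.19 and for Jam2 0.54 ± 0.13. The difference between the pairs of groups, tested as an interaction, was called for 0 genes in edgeR's quasi-likelihood test (239 or 1.36% at an unadjusted p under 0.05) and for 1 in DESeq2. Among segment genes 0 of 109 reached an unadjusted p under 0.05 in it, the smallest being 0.0654 for Mx1, and the median difference was 0.07. Outside the segment Cbs had a log2 difference of -0.98 ± 0.23 in the 5xFAD background, Cort of 0.88 ± 0.24, Selenov of 2.17 ± 0.42 and Anln of -0.49 ± 0.18. Rab7b was among the 3 genes of smallest p for the interaction, at -1.86 ± 0.37 (adjusted p = 1 in edgeR's quasi-likelihood test).

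Both sexes showed the segment's shift. Its median was 0.51 in females, with 97 of 109 genes above 0, and 0.59 in males, with 98 above 0. The difference of the Dp16 effect between the sexes was called for 0 genes in edgeR's quasi-likelihood test (217 or 1.24% at an unadjusted p under 0.05, 2 of them in the segment) and for 0 in DESeq2 (302 unadjusted). With 2 mice of each sex per group, only a large difference was detectable.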

How the data were processed

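Polyadenylated RNA of cortex was sequenced, per the labels' protocols from strand-specific libraries. The authors deposited raw read counts per gene, with no normalization, and RPKM values, which are those counts scaled by gene length and library total: gene lengths implied by the 2 tables were whole numbers within 8.5e-09. The submitters' processing notes name HISAT2 2.1.0, SAMtools 1.5, HTSeq 0.6.1 and GRCm38. None of the sources used here gives the strand setting of the counting.

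Counts of all 16 libraries were fitted with edgeR 4.0.16 (R 4.3.3; TMM, filterByExpr with a minimum count of 10, robust quasi-likelihood, sex as a covariate), which kept 99.9% of counts. Adjusted p is Benjamini-Hochberg over all tested genes, called under 0.05. For 1.5-fold, log(1.5) was added to the offset of segment genes. The scripts were tested on simulated counts that held no dependence on gene length, and the fit with the slope covariate was not among those tested. Replicate pairs within groups differed beyond sampling noise. Coordinates are from GENCODE M21 on GRCm38, which had no match for 241 genes.

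The segment, the gene lists and the tests were chosen with earlier results of these data known. Text names App, Thy1, the genes at the segment's ends, the most abundant and smallest-p members of each segment list, segment genes of extreme fold change, the 8 higher and 8 lower outside genes of smallest p with separate groups, and leading members of outside lists and of the interaction and sex contrasts. Some genes this rule selects are not reported. Vps26c, Tiam1, Gart, Olig1, Olig2, Hunk, Kcne2, Clic6, Mx1, Mx2, Nrip1, Tyr, Krt14, Slc5a5, Lgals3bp and Prelp were among those chosen after their values were seen.

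Alternatives were DESeq2, a replicate block, a fit without sex, one without the low-count filter, RLE size factors, the 8 libraries alone, each library left out, voom sample weights, limma-trend on log2 RPKM (pseudocounts 0.1 and 1) and the length slope covariate, fitted per library on coding genes above a mean log2 CPM of 2. Combinations of that covariate with fewer libraries were chosen after seeing the data.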

Additional observations from a re-analysis of the deposited data

Results flagged for a closer look

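In 8 of 160 groups of 4 libraries examined, the highest or lowest library stood apart from the other 3 by more of the group's range than Dixon's 95% limit allows, and chance alone gives about 1 in 20 groups. Wild-type replicate 3 accounted for 4 of them. In that library Ttc3 was low, at 790.3 CPM, and Gfap was high, at 289.8 CPM. The segment's median log2 ratio (0.1723) and its summed CPM, as a percent of the common library size (0.772%), were both above the other controls. That percent is not a share of the library's own counts, and the library's low normalisation factor (0.858) raises it. Whether the share of its own counts stood apart was not tested. In Dp16 replicate 1, Tiam1 was high at 78.42 CPM and the segment's median log2 ratio was low at 0.4409. Gfap stood at 549.5 CPM in Dp16 replicate 3, against 205 to 231 CPM in the other Dp16 libraries. The gene a had 0.09398 CPM in wild-type replicate 4, from 2 counts, and none in the other controls.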

How the results depend on the processing

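The number of genes called in edgeR's quasi-likelihood test, 1, became 20 with no low-count filter, 0 with only the 8 libraries, 44 with the slope covariate, 40 with that covariate and the 8 libraries, 14 with it and without wild-type replicate 3, 4491 with voom and 17 with DESeq2; leaving out 1 library gave 1 to 2. For segment genes the count of 0 became 1, 36, 33, 13, 55 and 13 with no filter, the covariate, the covariate and 8 libraries, the covariate without wild-type replicate 3, voom and DESeq2, and 0 to 1 with 1 library left out. The interaction gave 25 genes with no filter and 1 with DESeq2. The sex difference gave 30 with no filter and 0 to 6 with 1 library left out, the 6 without Dp16 replicate 2. The test against 1.5-fold gave 1 with no filter. The segment's median, 0.55, was 0.45 with limma-trend on log2(RPKM + 1) and 0.64 with voom, the lowest and highest of 31 alternatives.

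With the replicate number as a block, 0 genes were called (367 at an unadjusted p under 0.05, 49 in the segment), and 0 in the interaction, the sex difference and the test against 1.5-fold. Correlations of same-numbered wild-type and Dp16 libraries ran from -0.27 to 0.51, and those of differently numbered ones from -0.62 to 0.42. These ranges overlap and do not settle whether equal numbers mark paired samples.

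Of 3195 values of 77 genes and 34 list medians, 3019 were scored as the same. For a gene this meant the same direction and side of the threshold, and for a list a median within the SD between libraries. The main fit called only 1 gene, a, so any other gene scored as the same was uncalled in both fits. Among gene values 143, in 58 genes, passed the threshold where the main fit did not, and 2 lost it. List medians moved beyond that SD in 22 values of 9 lists. Some segment genes near the wild-type level, Cyyr1 among them, were scored on the log2 fold change less the log2 of 1.5. Turns around no change, such as those of Erg, Cyyr1, Olig1 and Olig2 given above, are therefore not among the reversed values. The 9 that reversed belonged to 5 genes. With voom these were Adamts1 (-0.031), Dscam (-0.12), Itsn1 (-0.24) and Prelp (-0.28). With 1 library left out, Adamts1 ran from -0.11 (without wild-type replicate 3) to 0.69, Cyyr1 less the log2 of 1.5 from -0.945 to 0.16 (without wild-type replicate 4), Itsn1 from -0.12 (without Dp16 replicate 1; -0.07 without wild-type replicate 3) to 0.36, and Prelp from -0.088 (without Dp16 replicate 1) to 0.66. Medians of 15 lists changed sign in some alternative. The cause was not tested.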
